A study of Macaca mulatta with 2 samples.

Results

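PPP1R1B, TMEFF2, RARRES1, PDPN and MGARP are 5 genes used as markers of trabecular meshwork cells, some of them for the cells that line the collagen beams of this tissue. They were taken by symbol from the 24037 features measured in single cells of this tissue from macaques, in 2 libraries, and each symbol belonged to 1 feature in both count matrices. The identifiers were ENSMMUG00000001405 for PPP1R1B, ENSMMUG00000001475 for TMEFF2, ENSMMUG00000014825 for RARRES1, ENSMMUG00000000145 for PDPN and ENSMMUG00000004196 for MGARP. The 5 genes were selected on earlier values of the same libraries, their levels across cell types and their ratios between the libraries, so these are given as a description, with no test.

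The trabecular meshwork is the sieve at the front of the eye through which aqueous humour drains. The study set a library labelled glaucoma, from rhesus macaques with spontaneous open-angle disease, beside a library labelled normal, from healthy controls, to compare their cell types and genes. Each group had 1 library, and the sources used here do not give the number of animals, their age or their sex. In both groups the tissue was digested for 20 minutes at 37 °C, passed through a 70 µm filter and loaded for 10000 cells on a droplet 3-prime kit of version 3.

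The values were counts of unique molecular identifiers (UMIs), each standing for 1 captured RNA molecule, and a level is given as counts per 1000000 UMIs of a cell group (CPM). The glaucoma library held 10624 barcodes and 38765808 UMIs and kept 8337 cells after filtering, and the normal library held 7028 barcodes and 25042621 UMIs and kept 5385 cells. The kept cells had medians of 2751 and 2702 UMIs. The libraries shared 17 barcode sequences, of which 11 were among the kept cells. Because there was 1 library per group, no difference between the libraries has a replicate check, and every interval below is an exact 95% interval that covers counting error only.

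The 5 genes have unlike roles. PPP1R1B encodes DARPP-32, which blocks protein phosphatase 1 once protein kinase A has phosphorylated it and is best known from dopamine-responsive neurons. TMEFF2 encodes a membrane protein with an EGF-like and follistatin-like domains. RARRES1 is a gene that retinoic acid induces in skin and other cells. PDPN encodes podoplanin, a mucin-type membrane protein of lymphatic endothelium and many stromal cells that binds ezrin family proteins inside the cell and the platelet receptor CLEC-2, encoded by CLEC1B, outside it. MGARP encodes a mitochondrial protein that takes part in mitochondrial transport and responds to hypoxia inducible factor.

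The 25 cell clusters were named from marker genes among which none of the 5 was counted. The trabecular meshwork-like class joined clusters 1, 10, 14 and 16, with 1842 glaucoma cells (22.1% of kept cells) and 866 normal cells (16.1%). All 10 meshwork markers had UMIs in the class in both libraries, with a summed level of 29617 CPM in glaucoma and 36701 CPM in normal. MYOC alone held 24713 and 31319 CPM of these sums. The clusters were named from these same markers, so the sums are no separate evidence for the name. The 10 stromal fibroblast markers summed to 11714 and 19649 CPM in the class. The class did not have the same make-up in the 2 libraries: cluster 1, led by CYTL1, CCK and CXCL14, held 1492 of the 1842 glaucoma cells but 171 of the 866 normal cells, and cluster 10, led by CYTL1, PLA2G2A and CCK, held 180 and 535. Cluster 9, led by WIF1 and BMP3 with 663 glaucoma and 67 normal cells, had 6 markers of meshwork and 6 of stromal fibroblasts, with none of either among its leading genes. It was left unnamed, because COL8A2, a marker of corneal endothelium, was among its leading genes, and is given beside the class. The median cell of the meshwork-like class had 5568 UMIs in glaucoma and 7228 in normal, with 3.66% and 1.60% of them mitochondrial.

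A label of meshwork genes described some of the 5 better than others. MGARP, TMEFF2 and PDPN had most of their UMIs in meshwork-like cells over both libraries, with 78.5% of 12011, 72.1% of 609 and 54.0% of 2025 UMIs, where the class held 34.6% of the UMIs of all genes. For PDPN the share was 58.7% in glaucoma but 47.3% in normal, where stromal fibroblast-like cells held 33.5%. RARRES1 had 28.5% of its 11721 UMIs in meshwork-like cells and 50.6% in stromal fibroblast-like cells. PPP1R1B had 44.5% of its 391 UMIs in meshwork-like cells and 36.1% in myelinating Schwann cell-like cells, which made up 1.95% of all UMIs. The names of the other classes come from the same kind of marker list and are also rebuilt here.

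**Figure D1:**
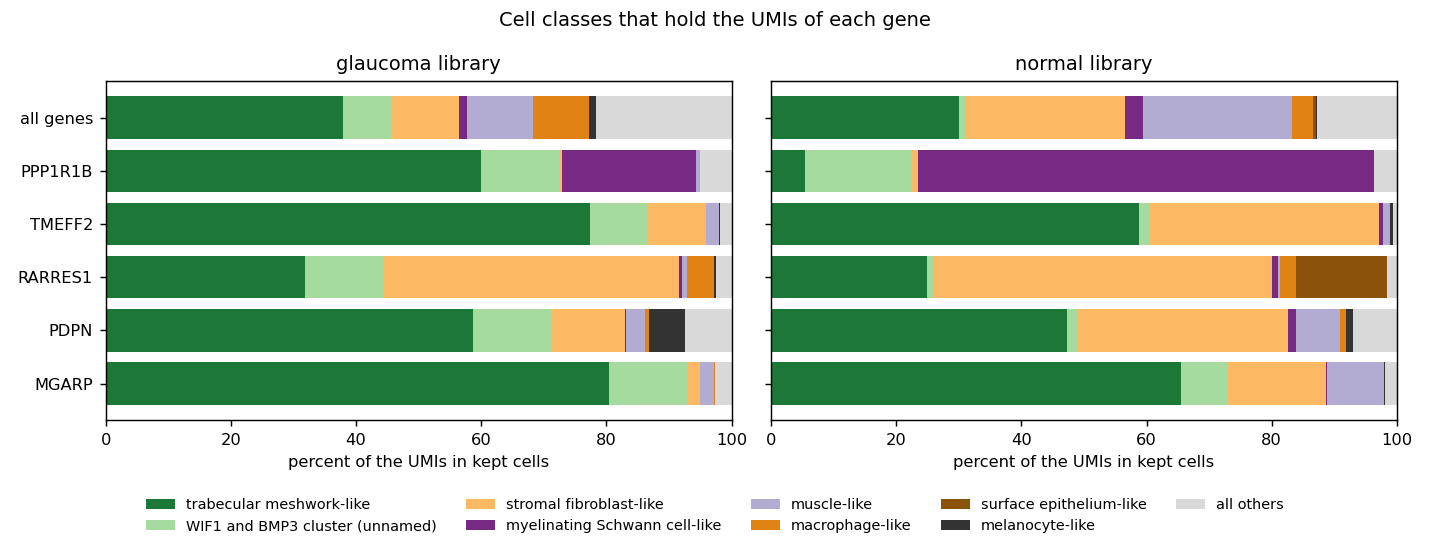
Share of the UMIs of all genes and of each of the 5 genes (horizontal axis, percent of the UMIs in kept cells) that lay in each cell class, with the glaucoma library on the left and the normal library on the right. MGARP and TMEFF2 lie mostly in the meshwork-like class, RARRES1 more in stromal fibroblast-like cells (47.3% and 54.3%) than in the meshwork-like class, and PPP1R1B of the normal library mostly in myelinating Schwann cell-like cells (73.0%).

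MGARP was highest in meshwork-like cells in the glaucoma library and in the WIF1 and BMP3 cluster in the normal library. In the meshwork-like class it reached 739 CPM there (723 to 755, 8424 UMIs) and 154 CPM in the normal library (145 to 164, 1003 UMIs). A UMI of MGARP was found in 65.5% of the glaucoma and 33.1% of the normal cells of the class, and in 37.6% and 12.0% of them when every cell was thinned to 1000 UMIs. The WIF1 and BMP3 cluster had 576 CPM (546 to 608) in glaucoma and 499 CPM (412 to 600) in normal.

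In lymphatic-type endothelium-like cells MGARP stood at 90.9 CPM in glaucoma (78.2 to 105), with a UMI in 128 of 550 cells and at most 6 UMIs in any cell. The normal library had 4 MGARP UMIs in 33 such cells. Vascular endothelium-like cells were lower, at 11.2 CPM (6.94 to 17.1) and 14.7 CPM (6.75 to 28.0). Stromal fibroblast-like cells held 63.1 CPM (54.8 to 72.4) and 43.7 CPM (38.3 to 49.5), and muscle-like cells 71.5 CPM (62.4 to 81.4) and 26.6 CPM (22.4 to 31.4). In the glaucoma library the intervals of the muscle-like and stromal fibroblast-like classes overlapped, as did those of the muscle-like and lymphatic-type classes.

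Free RNA in droplets can give UMIs in cells that do not make a gene, so the values of immune cells are given here. MGARP was seen in 2.37% of glaucoma macrophage-like cells (8.27 CPM, median depth 4096 UMIs) and in 1.87% of T or NK cell-like cells (33.3 CPM, 1350 UMIs), where 10 of the 16 UMIs lay in 1 barcode. The share in lymphatic-type cells, 23.3% at a median of 2454 UMIs, was above both, and after thinning it was 6.94% (4.90 to 9.47) against 0.321% (0.0388 to 1.15) in macrophage-like and 1.66% (0.54 to 3.82) in T or NK cell-like cells. In glaucoma lymphatic-type cells the stromal fibroblast markers summed to 5578 CPM and the meshwork markers to 547 CPM. Of the 10 stromal markers, 2 were raised in this cluster itself. In its normal cells only 3 had UMIs, with a sum of 1880 CPM, so the sum can rest on few genes. The source of the MGARP UMIs in lymphatic-type cells was not tested.

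PPP1R1B was detected mainly in Schwann cells, meshwork-like cells and the WIF1 and BMP3 cluster. PPP1R1B and TMEFF2 each overlap 1 unnamed long non-coding gene in the reference table, and whether the counting used strand is not known, so some of their reads may belong to it. In myelinating Schwann cell-like cells it had 149 CPM in glaucoma (114 to 192, 60 UMIs in 52 of 203 cells) and 133 CPM in normal (106 to 166, 81 UMIs in 66 of 241 cells), so the libraries overlapped. In meshwork-like cells it had 14.7 CPM in glaucoma (12.6 to 17.1, 168 UMIs in 103 cells) but 0.922 CPM in normal (0.338 to 2.01, 6 UMIs in 4 cells). In the WIF1 and BMP3 cluster the order was the other way, with 15.3 CPM in glaucoma (10.7 to 21.3, 35 UMIs in 24 of 663 cells) and 83.2 CPM in normal (50.1 to 130, 19 UMIs in 7 of 67 cells).

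Non-myelinating Schwann cell-like cells had 11.2 CPM of PPP1R1B in glaucoma (5.57 to 19.9, 11 UMIs in 11 of 876 cells) and 4.58 CPM in normal (1.25 to 11.7, 4 UMIs in 4 of 576 cells). In glaucoma this interval overlapped those of the meshwork-like class and the WIF1 and BMP3 cluster. Macrophage-like, T or NK cell-like, pericyte-like, lymphatic-type and melanocyte-like cells had 0 UMIs in both libraries. A count of 0 among the 2660189 UMIs of glaucoma macrophage-like cells allows up to 1.13 CPM. Stromal fibroblast-like cells had 1 UMI in each library, in 1231 and 1589 cells. In the myelinating Schwann class MGARP stood at 12.4 and 6.59 CPM and the 10 meshwork markers at a sum of 809 and 1805 CPM, against 29617 and 36701 CPM in the meshwork-like class. In meshwork-like cells the 6 markers of myelinating Schwann cells summed to 560 CPM in glaucoma and 651 CPM in normal, and their part in the PPP1R1B values was not tested.

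TMEFF2 lay mainly in meshwork and stromal cells. It had 29.5 CPM (26.4 to 32.8, 336 UMIs) in glaucoma and 15.8 CPM (12.9 to 19.2, 103 UMIs) in normal meshwork-like cells. The WIF1 and BMP3 cluster had 17.5 CPM (12.5 to 23.8) and 13.1 CPM (2.71 to 38.4). Stromal fibroblast-like cells followed with 12.3 CPM (8.80 to 16.8) and 11.5 CPM (8.89 to 14.7), and their intervals overlapped those of the WIF1 and BMP3 cluster. In the normal library the intervals of all 3 overlapped, while in glaucoma the meshwork-like class stood above both. The 633 and 153 macrophage-like cells had 0 UMIs of TMEFF2, and muscle-like cells had 9 and 2.

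PDPN was spread over several classes. Its level was highest in melanocyte-like cells, at 208 CPM in glaucoma (162 to 263, 69 UMIs in 89 cells) and 195 CPM in normal (93.5 to 359, 10 UMIs in 16 cells). That cluster was named from PMEL, TYR, DCT, SLC45A2 and MITF. Its leading genes also held TTR, a marker of ciliary epithelium, and which pigmented cells it holds was not tested. The meshwork-like class had 61.4 CPM (56.9 to 66.1) and 60.6 CPM (54.7 to 66.8), non-myelinating Schwann cell-like cells 57.8 CPM (43.8 to 74.9) and 61.9 CPM (46.5 to 80.7), and the WIF1 and BMP3 cluster 64.8 CPM (54.8 to 76.1) and 65.7 CPM (36.8 to 108). These 3 did not differ beyond their counting intervals in either library. Stromal fibroblast-like cells had 43.7 CPM (36.8 to 51.5) and 50.3 CPM (44.6 to 56.6), and 20.8% of all PDPN UMIs over both libraries.

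Lymphatic-type endothelium-like cells, in which podoplanin is a usual marker, had little PDPN. They held 16 UMIs in 9 of 550 glaucoma cells, or 7.95 CPM (4.54 to 12.9), and 0 UMIs in 33 normal cells, which allows up to 33.6 CPM. The same cells had UMIs of 6 of the 7 lymphatic-type markers, summing to 10371 and 9334 CPM, with LYVE1 at 0 in both libraries. The cluster was named from these same markers, of which 4, CCL21, MMRN1, FLT4 and STAB2, were counted for the name. Which kind of endothelium it holds was not tested. Pericyte-like cells held 0 and 1 PDPN UMIs in 523 and 331 cells.

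RARRES1 had more of its UMIs in stromal than in meshwork cells. Stromal fibroblast-like cells had 888 CPM in glaucoma (856 to 921) and 550 CPM in normal (530 to 570). Within them cluster 5, led by GPHA2, PI16 and SFRP4, had 1552 CPM (1482 to 1625) and 860 CPM (824 to 897). Meshwork-like cells had 170 CPM (163 to 178) and 215 CPM (204 to 227), and the WIF1 and BMP3 cluster 334 CPM (311 to 359) and 219 CPM (163 to 289).

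A small set of 12 cells, all of the normal library, held 821 RARRES1 UMIs, or 8201 CPM (7650 to 8782) and 14.6% of the RARRES1 UMIs of that library. They were named surface epithelium-like from KRT5, KRT15, KRT13, AQP5, PAX6 and CDH1. Their leading genes were SCGB3A1, PIGR, VMO1, AQP5, PIP, LTF, KRT13, C3, LCN2 and WFDC2, of which only AQP5 and KRT13 are markers of that class. All 12 cells had RARRES1, with a median of 51.5 UMIs and up to 152. Macrophage-like cells had 102 CPM in glaucoma (89.7 to 114) and 199 CPM in normal (167 to 234), and 33 of the 142 normal UMIs lay in 1 barcode.

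**Figure D2:**
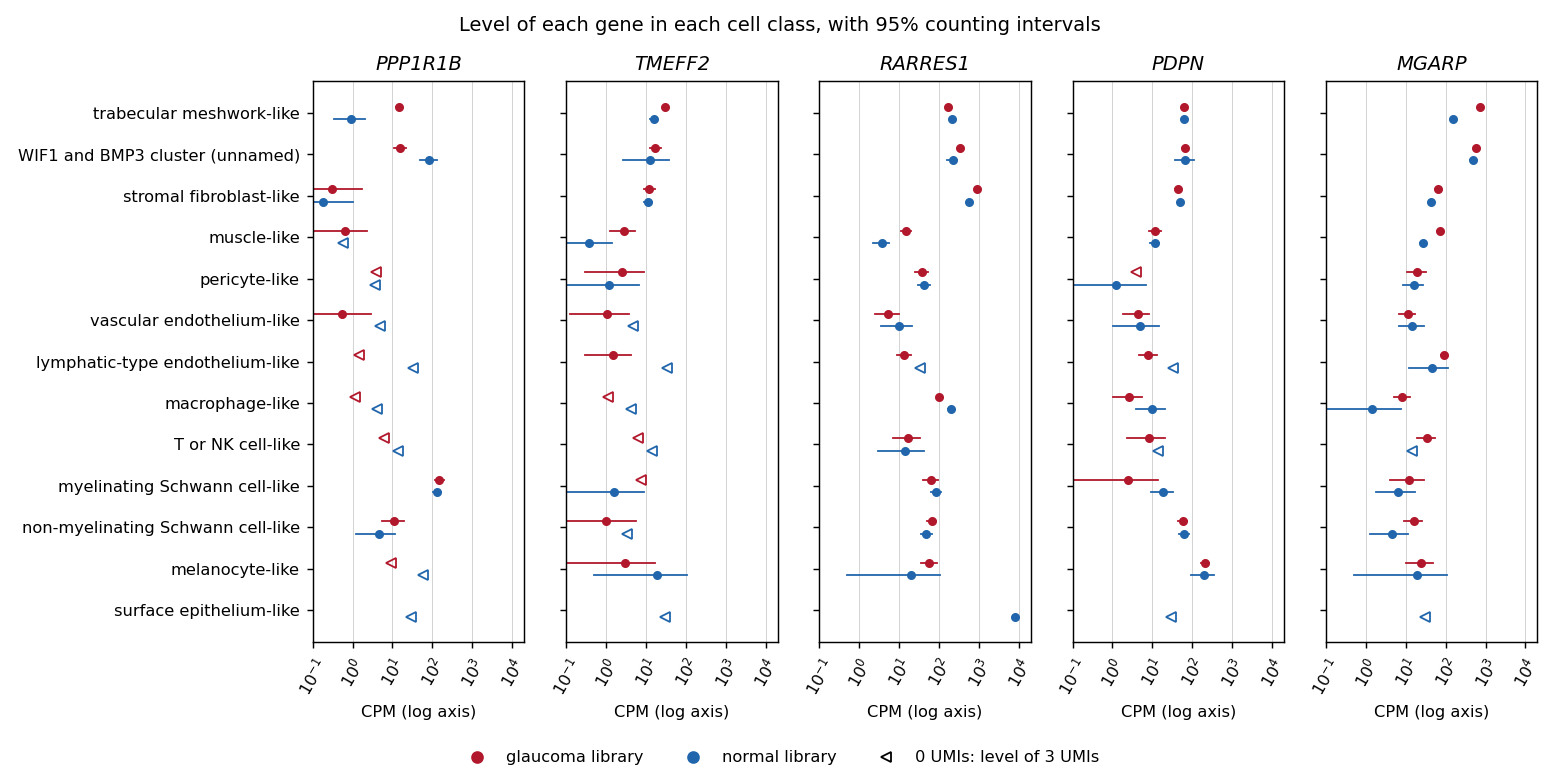
Level of each gene (horizontal log axis, CPM) in each cell class (rows) of the glaucoma library (red) and the normal library (blue), with lines for 95% counting intervals. An open triangle marks 0 UMIs and stands at the level of 3 UMIs. PPP1R1B is highest in myelinating Schwann cell-like cells, PDPN in melanocyte-like cells (208 and 195 CPM), and MGARP in the meshwork-like class and the WIF1 and BMP3 cluster.

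Within the meshwork-like class the 5 genes were highest in different clusters. MGARP and PPP1R1B were highest in cluster 1, RARRES1 and TMEFF2 in cluster 14, and PDPN in cluster 10. The TMEFF2 interval of cluster 14 overlapped that of cluster 16 in glaucoma and those of clusters 1, 10 and 16 in normal. In cluster 1 MGARP reached 891 CPM in glaucoma (872 to 910) and 450 CPM in normal (412 to 491). In cluster 10 it was 97.5 CPM (81.9 to 115) and 98.4 CPM (89.6 to 108), and in cluster 14, led by GPHA2, PTGDS and CHI3L1, it was 13.9 CPM (6.34 to 26.3) and 23.5 CPM (12.1 to 41.0).

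All PPP1R1B UMIs of the class lay in cluster 1, 168 in glaucoma and 6 in normal. Clusters 10, 14 and 16 had 0 UMIs in 350 glaucoma and 695 normal cells. For cluster 10 a count of 0 allows up to 2.13 CPM in glaucoma and 0.644 CPM in normal.

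RARRES1 was highest in cluster 14, at 814 CPM in glaucoma (746 to 886) and 373 CPM in normal (322 to 430). It was 203 CPM (180 to 228) and 234 CPM (221 to 249) in cluster 10, and 121 CPM (114 to 128) and 85.0 CPM (68.9 to 104) in cluster 1. TMEFF2 was 57.0 CPM (40.2 to 78.6) and 27.4 CPM (15 to 45.9) in cluster 14. PDPN was 21.6 CPM (11.8 to 36.2) and 33.2 CPM (19.4 to 53.2) there, against 61.3 CPM (56.4 to 66.6) and 57.8 CPM (44.7 to 73.5) in cluster 1. In cluster 10 PDPN was 81.1 CPM (66.9 to 97.5) in glaucoma, above the interval of cluster 1, and 65.5 CPM (58.4 to 73.3) in normal, where the intervals overlapped. Cluster 16 held 40 and 100 cells at a median of 1848 UMIs, and no gene had more than 27 UMIs in either library there.

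**Figure D3:**
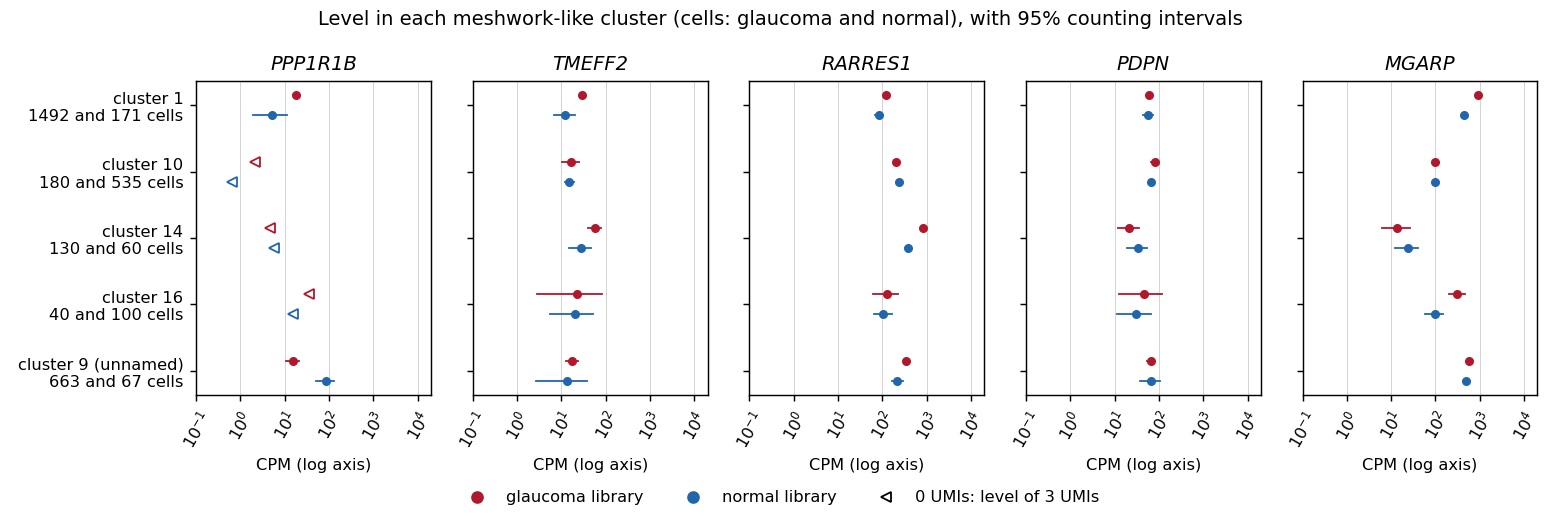
Level of each gene (horizontal log axis, CPM) in the 4 meshwork-like clusters and the unnamed WIF1 and BMP3 cluster, for the glaucoma library (red) and the normal library (blue), with lines for 95% counting intervals and open triangles at the level of 3 UMIs where no UMI was found. MGARP of cluster 1 stands at 891 and 450 CPM, while in cluster 10 the libraries overlap at 97.5 and 98.4 CPM.

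When each library was clustered alone, the PPP1R1B UMIs of its meshwork-like cells gathered in the cluster with the highest MGARP. In the glaucoma library 138 of 147 lay in a cluster of 586 cells led by CYTL1, MYOC and MGARP, with BMP3, SMPX and RSPO3 among its leading genes, where PPP1R1B was at 36.7 CPM (30.9 to 43.4) and MGARP at 1365 CPM (1328 to 1403). A larger cluster of 840 cells with CHI3L1 and ANGPTL7 among its leading genes had 9 PPP1R1B UMIs and MGARP at 490 CPM (470 to 510). In the normal library all 25 lay in a cluster of 292 cells with MGARP at 369 CPM (343 to 397), and its 3 other meshwork-like clusters had 0. A glaucoma cluster left unnamed, with 734 cells led by BMP3, MYOC and COL8A2, had 55 PPP1R1B UMIs at 19.3 CPM (14.5 to 25.1). Its MGARP was at 723 CPM (692 to 755). The 5 genes were not kept out of the choice of variable genes, so the grouping may not be independent of the clustering.

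The study's comparison of the libraries was then made within the meshwork-like class. The call of higher or lower needed 100 UMIs over both libraries, CPM values at least 2-fold apart and a counting interval without equality in it. PPP1R1B and MGARP, 2 of the 5 genes, were called higher in glaucoma, where 5.67% of the 8330 genes measured were called higher and 5.64% lower. The log2 ratio of glaucoma to normal was 4.00 (2.85 to 5.46) for PPP1R1B and 2.26 (2.17 to 2.36) for MGARP. TMEFF2 had a log2 ratio of 0.90 (0.57 to 1.23), PDPN of 0.02 (-0.16 to 0.20) and RARRES1 of -0.34 (-0.44 to -0.24), none of them 2-fold. The median over all genes measured was -0.01.

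The class values of MGARP, PPP1R1B and RARRES1 moved with the cluster make-up. With the same cluster weights in both libraries the log2 ratio of MGARP was 0.87 and that of PPP1R1B 1.79, and the sign of RARRES1 turned to 0.27. Without cluster 1, an alternative chosen after seeing the data, MGARP was at -0.17 (-0.43 to 0.08), RARRES1 at 0.66 (0.54 to 0.79), and PPP1R1B had no UMI in either library. When the WIF1 and BMP3 cluster was counted as meshwork, PPP1R1B had 203 and 25 UMIs and a log2 ratio of 2.0 (1.39 to 2.66).

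Inside cluster 1, PPP1R1B and TMEFF2, 2 of the 5 genes, were called higher, beside 3.64% of the 7065 genes measured there. Their log2 ratios were 1.79 (0.64 to 3.25) and 1.27 (0.50 to 2.16), and the normal values rest on 6 and 14 UMIs in 171 cells. MGARP was just under 2-fold, at 0.98 (0.86 to 1.12), RARRES1 was at 0.51 (0.21 to 0.82) and PDPN at 0.09 (-0.28 to 0.48). The 9 markers of muscle summed to 5453 CPM in glaucoma and 3311 CPM in normal in this cluster, and their part in these ratios was not tested.

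In cluster 10 none of the 3 genes with 100 UMIs was called, beside 8.49% of all genes: MGARP was at -0.01 (-0.30 to 0.27), RARRES1 at -0.21 (-0.40 to -0.02) and PDPN at 0.31 (-0.01 to 0.62). In cluster 14 RARRES1 was called higher at 1.13 (0.88 to 1.37), beside 3.02% of the genes there. In the WIF1 and BMP3 cluster none of the 3 genes measured was called, beside 13.2% of all genes, with MGARP at 0.21 (-0.07 to 0.50), RARRES1 at 0.61 (0.20 to 1.05) and PDPN at -0.02 (-0.79 to 0.85). PPP1R1B, with 54 UMIs too few for a call, was at -2.44 (-3.29 to -1.55) there.

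**Figure D4:**
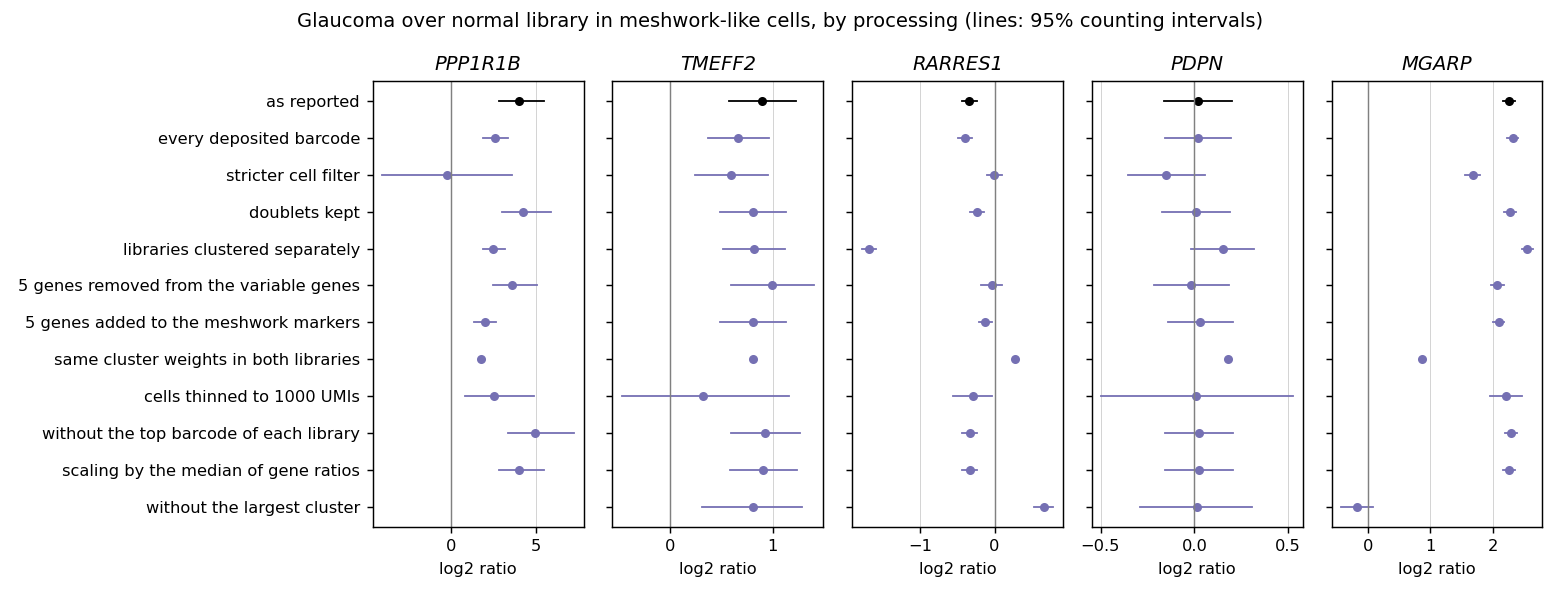
Log2 ratio of the glaucoma to the normal library in meshwork-like cells (horizontal axis, its own scale for each gene) for each of the 5 genes as reported (black) and under each other processing (purple), with lines for 95% counting intervals where they could be given. PDPN stays between -0.15 and 0.18, while MGARP runs from 2.56 with libraries clustered separately to -0.17 without cluster 1.

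Outside the meshwork, the values were as follows. In stromal fibroblast-like cells none of the 4 genes measured was called, beside 6.64% of all genes, and RARRES1 was highest at 0.69 (0.62 to 0.77). MGARP was at 0.53 (0.26 to 0.81), TMEFF2 at 0.09 (-0.51 to 0.68) and PDPN at -0.20 (-0.51 to 0.09). In myelinating Schwann cell-like cells PPP1R1B was at 0.16 (-0.34 to 0.66) and was not called, beside 6.91% of the genes there. In macrophage-like cells RARRES1 was at -0.97 (-1.27 to -0.67) and not called, beside 8.97%.

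In muscle-like cells MGARP was called higher at 1.43 (1.11 to 1.74), beside 3.33% of the genes measured. Of its 226 glaucoma UMIs 201 lay in cluster 20, a cluster of 73 glaucoma and 21 normal cells with ACTA2, CNN1 and also CCK and CYTL1 among its leading genes and UMIs of 5 meshwork markers each in at least 10% of its cells. Without that cluster MGARP was called lower, at -1.34 (-2.03 to -0.71), with 9.56 CPM in glaucoma and 24.2 CPM in normal, beside 3.54% of genes called lower. The value without the cluster was added after seeing the data.

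How often the genes were found in the same meshwork-like cell depended on depth. With all UMIs RARRES1 and MGARP were found together in 26.5% of glaucoma cells, and PDPN and MGARP in 20.1%. After thinning to 1000 UMIs, 47.3% of 1824 glaucoma cells and 65.6% of 847 normal cells had none of the 5 genes, and 7.79% and 3.07% had more than 1. No cell of the class had more than 3 of them. In the glaucoma library RARRES1 and MGARP were found together in 65 cells (2.76% to 4.52% of cells), where the product of their single shares gives 94.0 cells. In the normal library it was 7 cells against 17.8. With all UMIs the same pair stood at 489 cells against 511 in glaucoma and at 152 against 146 in normal. These counts mix cells of unequal depth, so they cannot show whether the shortfall at 1000 UMIs was absent.

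PPP1R1B and MGARP were found together in 22 glaucoma cells, against 12.4 from the product. Of the 33 thinned cells with PPP1R1B, 22 thus also had MGARP. With all UMIs it was 100 of 103, where the product within cluster 1 gives 78.5 cells of unequal depth. Within cluster 1 alone the RARRES1 and MGARP count was 63 cells against 68.1, and PPP1R1B and MGARP 22 against 15. Both intervals held the product, for PPP1R1B and MGARP 0.934% to 2.24% of cells against 1.01%. PDPN and MGARP stood at 37 cells against 36.5 over the class. The correlation over thinned cells of the glaucoma class was between -0.10 (RARRES1 and MGARP) and 0.06 (PPP1R1B and MGARP), a description over 1824 cells of 1 library.

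**Figure D5:**
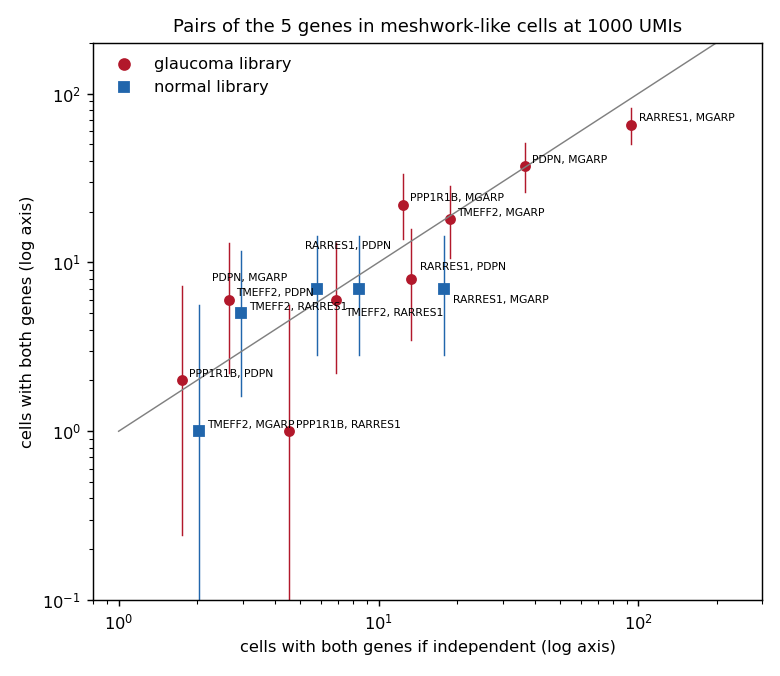
Number of meshwork-like cells with UMIs of both genes of a pair (vertical log axis) against the number given by the product of the single shares (horizontal log axis), in cells thinned to 1000 UMIs, for the glaucoma library (red circles) and the normal library (blue squares). The grey line marks equality and vertical lines are 95% counting intervals, and pairs whose product is under 1 cell are left out. RARRES1 and MGARP lie below the line in both libraries, at 65 and 7 cells.

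Within cluster 1, cells with MGARP carried more of the beam-type genes BMP3, a bone morphogenetic protein, and WIF1, a Wnt inhibitor, and less of the juxtacanalicular marker CHI3L1, a chitinase-like secreted protein. With cells thinned to 1000 UMIs, as in the rest of this comparison, 672 glaucoma cells had an MGARP UMI and 808 had none. Between them the log2 ratio was 0.49 (0.28 to 0.71) for BMP3, 0.54 (0.29 to 0.78) for WIF1 and -0.77 (-0.89 to -0.66) for CHI3L1. The endothelin gene EDN3, also on the beam list, went the other way at -0.93 (-1.41 to -0.46). The 48 and 115 such cells of the normal library had BMP3 at 0.94 (0.22 to 1.65) and CHI3L1 at -0.88 (-1.37 to -0.42). In the 33 thinned glaucoma cells with PPP1R1B, CHI3L1 was at -2.05 (-2.85 to -1.34). Cells with RARRES1 had CHI3L1 at 0.80 (0.65 to 0.94), the opposite sign to cells with MGARP or PPP1R1B.

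Over the 43 cluster sums with at least 20 cells, the profile of each gene was compared with 10576 others by Pearson's correlation of log2(CPM + 10), as a description, since sums of 1 library share its depth and preparation. The nearest to MGARP was BMP3 (0.83), followed by TMEM132C, RSPO2, ZNF804A and ECE2. PPP1R1B was nearest to LRRTM4 (0.90), METTL7B, UGT8, FSTL5 and DUSP15. TMEFF2 was nearest to ACHE (0.84), CHI3L1, RSPO1, SPHKAP and EGFL6, RARRES1 to CCL26 (0.84), KRT19, SFRP4, SYT12 and PC, and PDPN to CTSK (0.82), CDKL2, RNASE4, TCTN1 and LRPAP1. No 2 of the 5 genes were among each other's nearest 5, and their correlations ran from -0.02 for PPP1R1B and TMEFF2 to 0.64 for TMEFF2 and RARRES1.

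The other genes on the list of beam-type markers gave 5 measured members with a median log2 ratio of 0.34, of which BMP3 was called higher, none lower and the other 4 neither, beside 5.67% of all genes measured in the class called higher and 5.64% lower. BMP3 was at 1.22 (1.13 to 1.31), with 437 and 188 CPM, and at 0.39 with the same cluster weights. WIF1 was at 0.53, EDN3 at 0.34 but -0.70 at equal cluster weights, and BMP5, the lowest, at -0.89 (-1.05 to -0.73). Of 6 measured juxtacanalicular markers, whose median was -0.43, none was called higher, CHAD was called lower and 5 were neither, beside the same 5.67% and 5.64%. CHAD, a cartilage matrix protein gene, was at -2.59 (-2.73 to -2.46), and at -0.47 with the same cluster weights, and MGP, the calcification inhibitor, was the highest measured at 0.82. At equal cluster weights MGP stood at 0.10 and CHI3L1, at 0.04 before, was the highest at 0.92.

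The genes that act with PPP1R1B were read next. Of the 15 measured among 24 kinases, phosphatases and upstream signals of DARPP-32, none was called higher and PPP1CB was called lower, with a median of -0.31, where 5.67% of all genes were called higher and 5.64% lower. PPP1CB, a catalytic subunit of the phosphatase that DARPP-32 inhibits, was at -1.32 (-1.68 to -0.97) and PRKAR2B, a regulatory subunit of protein kinase A, was the highest at 1.00 (0.49 to 1.53). The dopamine receptors DRD1 and DRD2 had 6 UMIs each over both libraries, too few to measure.

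The retinoid genes listed beside RARRES1 held 16 measured members with a median of -0.11, of which 3 were called higher and 2 lower, and 11 were neither, beside 5.67% and 5.64% of all genes. Among the higher were the cellular retinoic acid-binding proteins CRABP1 at 2.03 (1.72 to 2.35) and CRABP2 at 1.55 (1.36 to 1.75). With the same cluster weights these were at 1.72 and 0.70. The lower were RDH10, which oxidises retinol, at -1.06 (-1.38 to -0.73), and CYP26A1, which breaks down retinoic acid, at -1.02 (-1.17 to -0.87), at -0.62 and -0.78 with the same weights.

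Among 10 measured podoplanin partners 2 were called higher and 2 lower, beside 5.67% and 5.64% of all genes, and the median was -0.41. The chemokine CCL21 was at 4.16 (2.76 to 6.05), with 125 and 4 UMIs, and the hyaluronan receptor CD44 at 1.54 (0.96 to 2.17). Ezrin, encoded by EZR, was at -1.67 (-1.94 to -1.40) and the kinase ROCK2 at -1.01 (-1.23 to -0.79), or -0.58 with the same cluster weights. CCL21 is also a marker of the lymphatic-type class, which made up 6.60% of the glaucoma and 0.613% of the normal cells. Its 7 markers summed to 15.1 CPM in glaucoma meshwork-like cells with none at 0, and to 3.84 CPM in normal ones with MMRN1 and LYVE1 at 0. CCL21 is itself among these 7 markers. It made up most of the glaucoma sum but only a small part of the normal sum. The difference between the sums thus largely repeats that of CCL21 and is no separate evidence about it. The part of lymphatic-type cells in the CCL21 value was not tested. CLEC1B had 0 UMIs.

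Of 9 measured genes of mitochondrial transport and hypoxia inducible factor, listed beside MGARP, whose median was 0.04, 1 was called higher and 1 lower, and 7 were neither, where the shares over all genes were 5.67% and 5.64%. KIF5C, a kinesin motor, was at 1.41 (0.72 to 2.17) but turned to -0.13 at equal cluster weights. EPAS1, a hypoxia inducible factor subunit, was at -1.71 (-1.89 to -1.53), and at -0.93 with the same weights. Among the 4 measured follistatin, activin and PDGF genes listed beside TMEFF2, PDGFA, a ligand that TMEFF2 has been reported to bind, was called higher at 2.35 (1.44 to 3.39) with 98 and 11 UMIs, none was called lower, beside 5.67% and 5.64% of all genes, the lowest, FST, was at -0.32 (-0.49 to -0.16) but turned to 0.26 at equal cluster weights, and the median was 0.08.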

How the data were processed

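Per the labels, 1 library labelled glaucoma and 1 labelled normal were sequenced. The deposited values were counts: UMIs per gene and barcode made by the authors, whole and without normalization. Per the submitters' processing notes Cell Ranger 4.0 and Seurat 3.0 were used, while the file headers name Cell Ranger 6.0.0. The sources used here name neither the genome build nor the annotation, so no coordinates or sequences are printed, and whether counting used strand is not known. In the RefSeq table for macaque (T2T-MMU8v2.0), PPP1R1B and TMEFF2 each overlap 1 unnamed long non-coding gene and the other 3 genes none.

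Of 24037 features 15580 had a symbol in the files and 873 took it from a reference table of gene names. PPP2CA, TMEFF1, FSTL3, INHBA and CD9 had no single named feature.

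Cells were kept with at least 500 genes and under 20% mitochondrial UMIs after removal of doublets called by Scrublet within each library (296 and 45 barcodes, 3.43% and 0.829%). Both libraries were clustered together with scanpy 1.11.5 under Python 3.11.15, without integration: scaling to 10000 UMIs, logarithm, 2000 variable genes, 30 components, 15 neighbours and Leiden resolution 1, seed 1. PPP1R1B, RARRES1 and MGARP were among the variable genes. A marker was counted if at least 10% of the cluster's cells had it and its level was at least 2-fold the median over clusters, with 10 CPM added to both. Clusters were named for the class with the most counted markers, if at least 3 were counted. A cluster was left unnamed where another class had more markers among the 10 leading genes, or an equal number above 1. Vascular endothelium clusters with at least 3 counted lymphatic-type markers were named lymphatic-type.

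CPM intervals are exact Poisson, shares exact binomial (Clopper-Pearson), and the log2 ratio has the conditional binomial interval. An upper limit at 0 is the level of 3 counts. No p-value was computed, since each group has 1 library. The ratio calls were also run on simulated Poisson counts, which hold counting error only. That run could not show how the calls fare under variation between libraries, animals or cluster make-up. The 5 genes, the lists, the markers and the rule for named genes (all members, their 5 nearest profiles, and in each list the called genes and the extremes, with any member of the beam-type and juxtacanalicular lists) were chosen with earlier results of these data known. Some genes of the lists are counted in their list but not reported here by name.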

Additional observations from a re-analysis of the deposited data

Results flagged for a closer look

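RARRES1 and PPP1R1B had counting intervals on opposite sides of equal levels in different cell groups of the same libraries, and these differences between groups were not tested. The log2 ratio of glaucoma to normal for PPP1R1B was 4.00 in meshwork-like cells and 1.79 in cluster 1, but -2.44 in the WIF1 and BMP3 cluster, where it rests on 19 normal UMIs in 7 cells. That of RARRES1 was 2.02 in muscle-like cells, 1.13 in cluster 14, 0.69 in stromal fibroblast-like cells, 0.61 in the WIF1 and BMP3 cluster and 0.51 in cluster 1. It was -0.97 in macrophage-like cells, -0.34 in meshwork-like cells as a whole and -0.21 in cluster 10. The muscle-like value rests on 47 and 19 UMIs, of which 31 and 2 lay in the cluster led by ACTA2 and CNN1 that also holds CCK, and was 0.87 (-0.21 to 1.94) without that cluster.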

How the results depend on the processing

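No paired analysis was possible because each group has 1 library. The log2 ratio of PDPN in meshwork-like cells stayed between -0.15 and 0.18 under all 11 alternatives. PPP1R1B was 2.57 with every barcode, 2.51 with libraries clustered separately, 2.0 with the 5 genes added to the meshwork markers, 1.79 with the same cluster weights, 2.52 in thinned cells and reversed to -0.22 under the stricter cell filter (1000 genes, 10% mitochondrial), which left 2 UMIs in each library. There 147 and 4 of its UMIs lay in a cluster named muscle but led by CYTL1, CCK and MGARP, and 48 and 15 in a stromal fibroblast cluster led by WIF1. TMEFF2 was 0.32 in thinned cells. RARRES1 was -0.0012 (-0.10 to 0.10) under the stricter filter, -1.69 clustered separately, where the normal class took in 716 cells with 2891 of its UMIs, -0.039 with the 5 genes removed from the variable genes, -0.12 with them added to the markers, 0.27 with the same cluster weights and 0.66 without cluster 1. MGARP was 1.68, 2.56, 2.08, 2.10, 0.87 and, reversed, -0.17 in these same settings. Without a UMI minimum 861 genes were called higher and 973 lower, against 472 and 470. Depth limits PPP1R1B and TMEFF2 most: normal meshwork-like cells held 6 and 103 of their UMIs.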
